A study of Mus musculus with 30 samples.

Results

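Mitochondrial ribosomal protein genes were taken as every gene whose symbol starts with Mrpl or Mrps followed by a number and that has a probe set assigned to that symbol alone, which gave 76 of the 18193 genes with such a probe set. Each gene was read from 1 probe set, the one with the highest mean over the 30 arrays. By symbol, 47 genes code for proteins of the large subunit (Mrpl) and 29 for proteins of the small subunit (Mrps). The arrays came from mouse embryonic stem cells of the R-1 line kept undifferentiated with LIF (ESC) and from embryoid bodies made from them by 5 days without LIF (EB). Cells of both states received cycloheximide at 150 ug/ml for 15 min before harvest, which holds ribosomes on their mRNAs, so that no sample was free of this drug. Cytoplasmic lysates were separated on sucrose gradients, and the fractions were combined into 4 pools per culture. Each of 3 biological replicates per state was measured as total RNA of the unfractionated lysate and as pools 1 to 4, from 2.5 ug of RNA per array. Nothing in the labels tells whether pool 1 holds the lightest or the heaviest fractions, and the pools are called by number alone.

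Mitochondrial ribosomes translate the few proteins encoded by mitochondrial DNA, which are core subunits of the respiratory chain and the ATP synthase. Their RNA comes from the mitochondrial genome, but all of their proteins are encoded in the nucleus, made on cytosolic ribosomes and imported, so the mRNAs measured here are cytosolic mRNAs of the host cell's own translation. The balance of glycolysis and oxidative metabolism can change as pluripotent cells differentiate. The mitoribosome is part of the machinery that oxidative metabolism needs. Metabolism was not measured here.

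All 76 genes passed the filter on low values, 61 of them were among the 2648 genes with the highest mean level of the 13240 genes tested (called high-level genes below), and no member lay at an array's floor value in any pool. The deposited values are log2 signals on a scale that differs between arrays: the mean linear signal ran from 72.4 to 577.8, and replicates of 1 group correlated with r between 0.817 and 0.983. In pool 2 of EB the third replicate stood apart, with r of 0.838 to each of the other two, where the other pairs of pool replicates had r of 0.925 to 0.983. Replicates of total RNA had r of 0.817 to 0.858, and on each of these arrays 0.00222% of probe sets lay at the floor, at -3.15 to -1.56. On pool arrays 18.3% to 59.1% did, so low signals of total RNA and of pools are not alike. Every pool array of a given replicate number had the same floor value in ESC and in EB. It was 3.80, 2.93 and 3.35 on the log2 scale for replicates 1, 2 and 3. With this shared floor, results are also given with the replicate number as a block where it alters them. Levels and differences are therefore given relative to all genes, after an offset of 32 had been added to the linear signal and the arrays of each comparison had been set to 1 common distribution, and the other scalings follow beside the results they alter. In total RNA all 9 ESC markers were measured in both states, and their summed signal was 42527 to 43115 in ESC and 41668 to 42056 in EB. Among them Klf4 and Fgf4 fell and Nanog rose. Without overlap of the cultures, Pou5f1, Esrrb and Tdgf1 were also lower in EB and Dppa5a was higher. Of 7 endoderm markers 5 could be tested and 4 rose (Gata6, Sox17, Ttr and Dab2). The list's summed signal was 77 to 215 in ESC and 448 to 473 in EB. No marker lay at the floor on all arrays, but nearly no probe set of a total RNA array did, so this does not show that each was detected. The summed signal of 4 primed epiblast markers was 1913 to 2337 in ESC and 2715 to 3112 in EB. Of these Otx2 was higher in every EB culture than in any ESC culture, and Fgf5, Dnmt3b and Pou3f1 were lower. For mesendoderm markers the sums were 129 to 173 and 200 to 275. They were 338 to 417 and 274 to 328 for neural markers, and 160 to 243 and 113 to 158 for fibroblast markers. In bulk cultures a smaller share of cells of a type and less RNA per cell cannot be told apart, and the part of these markers' change in the results below was not tested.

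In total RNA most members differed little between the states. Relative to all genes 10 members fell in EB and 1 rose (limma, Benjamini-Hochberg adjusted p below 0.05 over 13240 genes), against a background of 5.88% of all genes called lower and 6.47% called higher, and of 10.4% and 10.2% among high-level genes. The members called lower were 13.2% of all members. This count rested on single cultures: 3 to 7 members were called lower when any 1 culture was left out. It was 2 with the replicate number as a block and 0 without the third replicate of both states (19 had an unadjusted p below 0.05). In a fit on the high-level genes alone it was 23. The share of all genes called in each of these fits is not given here, so the counts show only how the number moved. The median difference of the members was -0.13 on the log2 scale, against 0.01 for all genes. Mrpl11, a protein at the base of the stalk where translation factors bind, had the lowest difference. Its level was 10.90, 10.42 and 10.72 in the 3 ESC cultures and 9.62, 9.72 and 9.63 in the 3 EB cultures, so the EB cultures lay below every ESC culture. It fell by 1.02 ± 0.14 (SE, n = 3 per state, limma adjusted p = 0.00847), and Mrpl11 stayed called when any single culture was left out, though not without the third replicate of both states.

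The other members that fell in total RNA did so by 0.39 to 0.71. Mrpl36, a small conserved large-subunit protein, fell by 0.71 ± 0.11 (limma adjusted p = 0.0103) and Mrps36 by 0.70 ± 0.13 (adjusted p = 0.0172). Mrpl52 fell by 0.66 ± 0.11 (adjusted p = 0.0125) and Mrpl18 by 0.64 ± 0.11 (adjusted p = 0.0140), and Mrpl33, Mrps14, Mrps9, Mrpl35 and Mrps6 complete the list. With the replicate number as a block Mrps36, Mrpl52, Mrpl18 and Mrpl17 were not called (limma adjusted p of 0.0507, 0.0543, 0.0576 and 0.0703). Mrpl17, a homologue of a bacterial large-subunit protein, was the only member called higher. Its level was 9.68, 9.78 and 9.54 in ESC and 10.18, 10.32 and 10.51 in EB, and it rose by 0.67 ± 0.13 (limma adjusted p = 0.0230). The groups did not overlap. With the mean of all probe sets of the gene, of which the other 2 are dim, the Mrpl17 difference was -0.04, and Mrpl17 was no longer called in 4 of the 6 fits that left out a culture.

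These directions are relative. On the deposited scale all genes tested had a median difference of 0.96 in total RNA, and 75 members were called higher and none lower, also at an unadjusted p below 0.05 (78.8% of all genes were called higher and 0.317% lower). With each array centred on its median, 7 members were called higher and 7 lower (12.7% and 21.5% of all genes). The difference between the members' median and that of high-level genes was small on every scale, between -0.13 and -0.07.

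A larger shift appeared when the members' levels were compared between pools, relative to all genes. For each culture the pool ratio was the mean log2 level in pools 3 and 4 minus that in pools 1 and 2. A lower ratio means that a gene stood higher among all genes in pools 1 and 2 than before, relative to pools 3 and 4. Every array received the same amount of RNA, and the arrays were set to a common distribution. The ratio therefore does not give how a gene's mRNA was divided between the pools. The median pool ratio of the 76 members was 0.04, 0.02 and -0.07 in the 3 ESC cultures and -0.62, -0.44 and -0.46 in the 3 EB cultures. High-level genes had medians between 0.00 and 0.03 in ESC and between 0.13 and 0.15 in EB, so the members lay near them in ESC and below them in each EB culture. Between the states 31 members fell and 1 rose relative to all genes (limma, adjusted p below 0.05; on the deposited scale 53 were called higher), where 4.72% of all genes were called lower and 3.66% higher. Among high-level genes these shares were 12.7% and 8.53%. The median difference of the members was -0.51, against 0.04 for all genes and for high-level genes alike. For 51 members every EB culture lay below every ESC culture, and for 3 members above, where 13.8% and 16.6% of all genes did so.

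**Figure D1:**
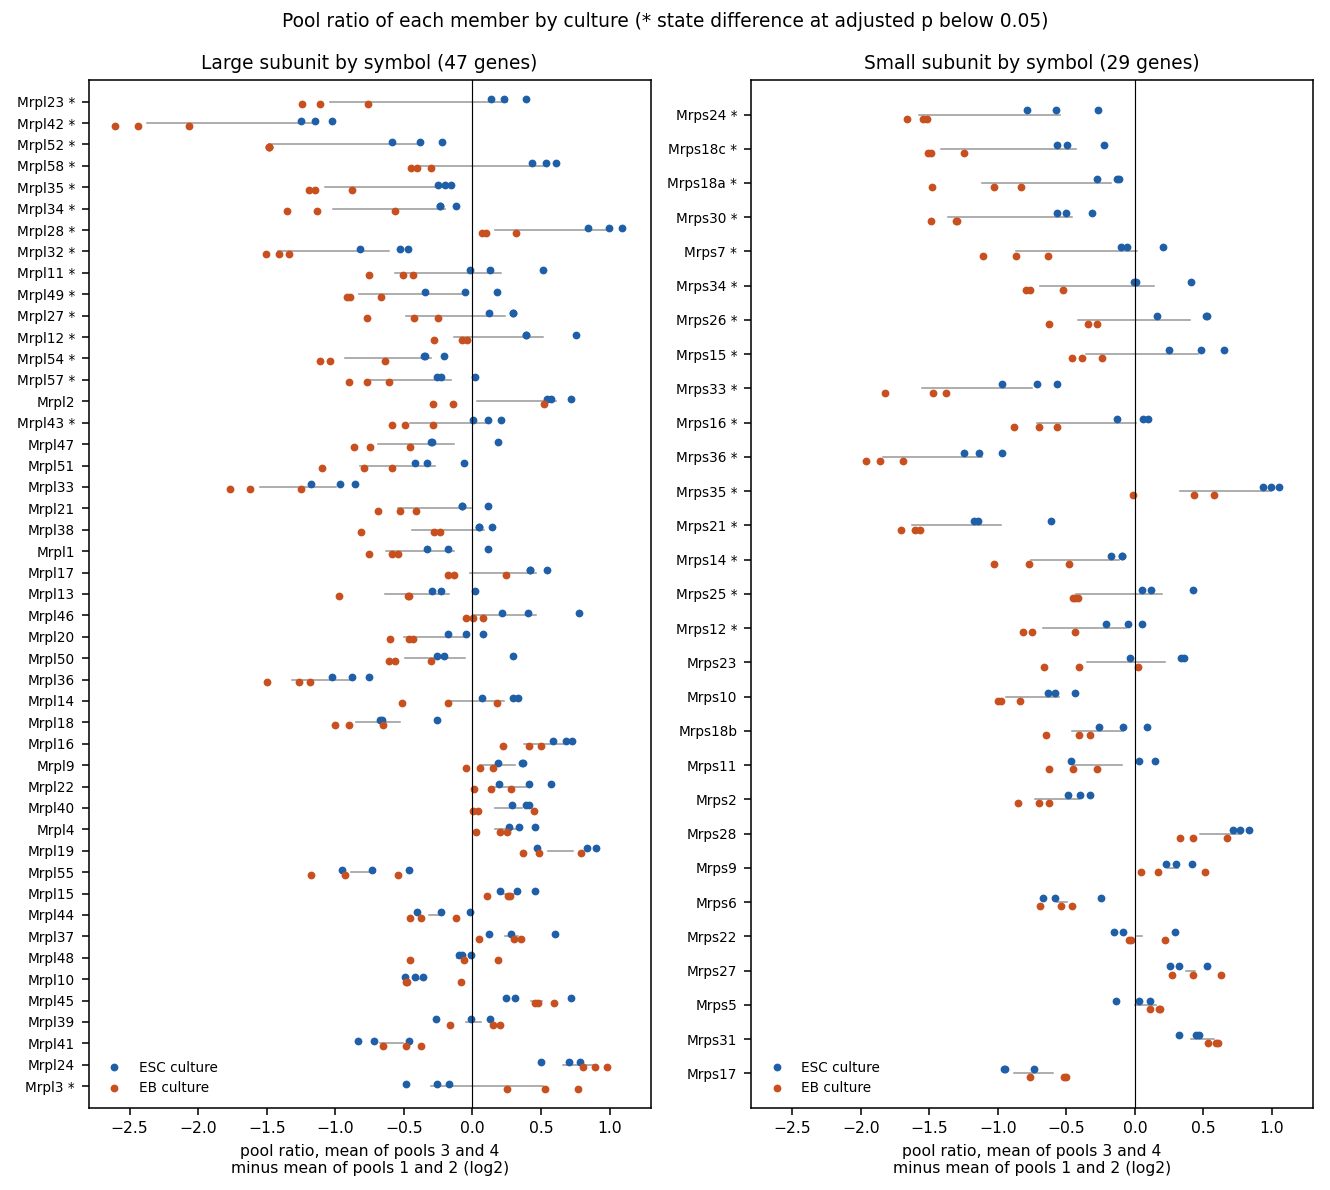
Pool ratio (log2, mean of pools 3 and 4 minus mean of pools 1 and 2, relative to all genes) of each of the 76 members, with 1 point per culture, blue for ESC and orange for EB, and a grey line between the means of 3. Members are sorted by the state difference within the large and the small subunit; most EB points lie to the left of the ESC points, and Mrpl3, lowest in the left panel, is the only starred member with EB to the right (on the deposited scale 53 members are called higher).

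The number of calls rested on single cultures and on the offset more than the size of the shift did. Without ESC replicate 2 no member was called lower (38 had an unadjusted p below 0.05) and 17 genes were called lower in all. With the other cultures left out in turn 11 to 25 members were called lower, the fewest without ESC replicate 1. The share of all genes called in these fits is not given here, so the counts show only how the number moved. With an offset of 8 in place of 32, 0 members and 0 of all genes were called lower (44 members had an unadjusted p below 0.05). The members' median stayed between -0.55 and -0.42 when any 1 culture was left out, and was -0.56 with the offset of 8.

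The scaling set the sign. On the deposited scale the median of the members was 0.65 and that of all genes 0.73, and 53 members were called higher and none lower, also at an unadjusted p below 0.05, where 64.6% of all genes were called higher and 0.0831% lower. With each array centred on its median, the members' median was -0.16 (5 called higher and 8 lower, where 15.4% and 21.4% of all genes were), and that of all genes was -0.08. With linear signals scaled before the offset it was -0.41 (1 higher and 20 lower, where 5.57% and 4.74% of all genes were). The members' median minus that of high-level genes was -0.55 on the relative scale, -0.54 on the deposited scale and -0.52 with signals scaled before the offset. With median centring it was -0.54 by construction, since centring shifts all genes of an array alike. Against all genes tested, the members stood apart on the relative scale (medians of -0.51 and 0.04) and lay close to them on the deposited scale. The statements that follow are relative to all genes on the common distribution, as in the first of these fits.

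**Figure D2:**
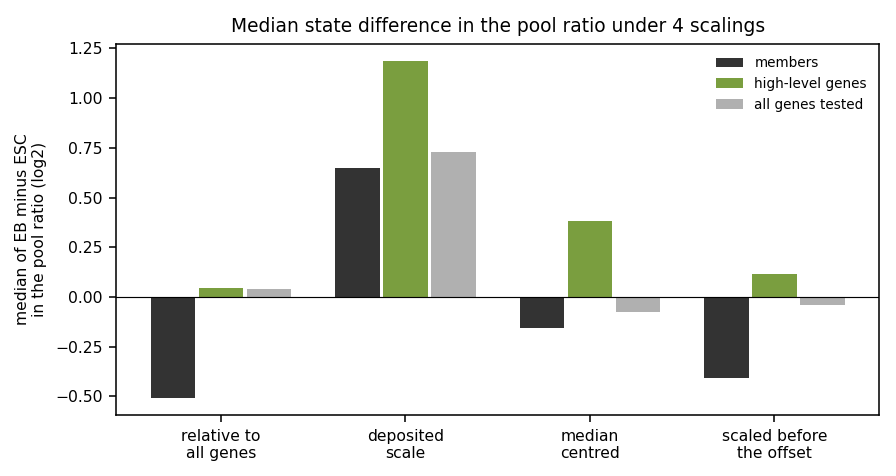
Median of EB minus ESC in the pool ratio (log2) for the 76 members, the 2648 high-level genes and all 13240 genes tested, as bars under 4 scalings. The bars of the members change sign between scalings, from -0.51 to 0.65, while their distance to high-level genes stays between -0.55 and -0.52.

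Among large-subunit members the largest decrease was in Mrpl23, a homologue of the bacterial protein at the mouth of the peptide exit tunnel. Its pool ratio was 0.23, 0.39 and 0.14 in ESC and -1.25, -0.76 and -1.11 in EB. The EB cultures were all below 0 and the ESC cultures all above it. Mrpl23 fell by 1.29 ± 0.17 (SE, n = 3 per state, limma adjusted p = 0.00530) while its total RNA difference was -0.04 ± 0.11 (adjusted p = 0.851). Mrpl42, a protein specific to mitochondrial ribosomes, had a ratio of -1.25, -1.15 and -1.03 in ESC and of -2.61, -2.07 and -2.44 in EB. It was on the side of pools 1 and 2 in every culture and fell further in EB, by 1.23 ± 0.18 (adjusted p = 0.00530). Mrpl52, also specific to mitochondria, went from -0.38, -0.22 and -0.59 to -1.49, -1.48 and -1.49, and the EB cultures hardly differed from each other. Mrpl52 fell by 1.09 ± 0.16 (adjusted p = 0.00530) and is 1 of 5 members that fell both in this ratio and in total RNA, with Mrpl11, Mrpl35, Mrps14 and Mrps36.

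Mrpl58, also known as Ict1, a peptidyl-tRNA hydrolase that frees stalled mitochondrial ribosomes and is built into the large subunit, went from 0.54, 0.61 and 0.43 in ESC to -0.41, -0.30 and -0.45 in EB. It crossed from the side of pools 3 and 4 to that of pools 1 and 2. Mrpl12, which forms the flexible stalk that recruits translation factors and has also been linked to mitochondrial RNA polymerase, had ratios of 0.76, 0.39 and 0.39 in ESC and -0.28, -0.08 and -0.04 in EB. It fell by 0.64 ± 0.17 (limma adjusted p = 0.0387), with a total RNA difference of 0.10 ± 0.13 (adjusted p = 0.648). Mrpl28 was called toward pools 3 and 4 in ESC and not in EB. Its ratio went from 1.09, 0.99 and 0.85 to 0.10, 0.32 and 0.07, above 0 in every culture.

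Among small-subunit members Mrps24, the mitochondrial counterpart of bacterial S3, was the lowest. Its ratio was -0.58, -0.27 and -0.79 in ESC and -1.66, -1.54 and -1.51 in EB, and it fell by 1.03 ± 0.17 (limma adjusted p = 0.00888). A second probe set of Mrps24 gave a difference of -1.40. Mrps12, the decoding-centre protein whose bacterial homologue carries streptomycin resistance mutations, had ratios of 0.05, -0.05 and -0.21 in ESC and -0.82, -0.44 and -0.75 in EB. It fell by 0.60 ± 0.17 (adjusted p = 0.0477), close to the threshold, and with the replicate number as a block neither Mrps12 nor Mrpl12 was called (limma adjusted p of 0.0575 and 0.0559). Mrps30, a protein that structures of the mammalian mitoribosome place in the large subunit despite its name, fell by 0.90 ± 0.16 (adjusted p = 0.00988), from between -0.57 and -0.31 to between -1.49 and -1.30. Mrps36, which later work assigned to the 2-oxoglutarate dehydrogenase complex and not to the ribosome, fell by 0.72 ± 0.16 (adjusted p = 0.0210), from between -1.25 and -0.97 to between -1.96 and -1.70.

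Mrps18a, Mrps18b and Mrps18c are 3 paralogues of a single bacterial protein, of which mammalian ribosomes hold Mrps18b and Mrps18c in the small subunit and Mrps18a in the large. The ratio of Mrps18c was -0.23, -0.49 and -0.57 in ESC and -1.51, -1.25 and -1.49 in EB. That of Mrps18a was -0.13, -0.11 and -0.28 in ESC and -1.03, -0.83 and -1.48 in EB. That of Mrps18b was 0.09, -0.09 and -0.26 in ESC and -0.33, -0.41 and -0.65 in EB, the smallest separation of the 3 and still without overlap. Mrps18c fell by 0.99 ± 0.16 (limma adjusted p = 0.00884) and Mrps18a by 0.94 ± 0.19 (adjusted p = 0.0150), while Mrps18b had a difference of -0.37 ± 0.17 that was not called (adjusted p = 0.186). The difference between the paralogues themselves was not tested.

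Mrpl3, a conserved protein near the peptidyl transferase centre, was the only member called higher in the ratio. Some members that were not called also had a positive difference, such as Mrps17 (0.285) and Mrpl24 (0.232). The ratio of Mrpl3 was -0.48, -0.17 and -0.26 in ESC and 0.25, 0.53 and 0.77 in EB. The states did not overlap and lay on opposite sides of 0. Mrpl3 rose by 0.82 ± 0.18 (limma adjusted p = 0.0199), its next brightest probe set gave 0.66, and its total RNA difference was -0.02 ± 0.13 (adjusted p = 0.935). The call on Mrpl3 was lost with the offset of 8 and in the fits without ESC replicate 1, 2 or 3, with differences of 0.72 to 0.92.

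Small-subunit genes were called lower at a higher rate, 16 of 29 against 15 of 47 large-subunit genes, and their median difference was -0.63 against -0.46. The medians differed by 0.16. By culture, the large-subunit median of the ratio minus the small-subunit median was 0.02, 0.14 and 0.13 in ESC and 0.17, 0.16 and 0.19 in EB, so it was above 0 in every culture and the states did not overlap, but 2 ESC cultures came close to the EB cultures. When Mrps18a and Mrps30 were counted with the large subunit and Mrps36 was left out, the difference of the medians was 0.10. With that assignment the large minus small median within ESC fell below 0, and within EB it was smaller than by symbol. The values above 0 in every culture therefore hold for the subunits by symbol. With the mean of all probe sets the difference of the medians between the states was 0.08. The difference between the subunits was not tested. In total RNA the large and small subunit medians were -0.10 and -0.18.

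Within ESC the members were spread over both sides of the ratio, in shares near those of high-level genes. There 21 (27.6%) were called toward pools 3 and 4 and 19 (25%) toward pools 1 and 2 (limma test of the mean against 0), where 18.1% and 14.4% of all genes were called, and 27.5% and 27.1% of high-level genes. Members furthest toward pools 3 and 4 in ESC were Mrps35 at 0.99, Mrpl28 at 0.98, Mrps28 at 0.77, Mrpl19 at 0.74 and Mrpl16 at 0.67. Members furthest toward pools 1 and 2 were Mrpl42 at -1.14, Mrps36 at -1.12, Mrpl33 at -1.0, Mrps21 at -0.98 and Mrpl36 at -0.88. Without ESC replicate 1 or 2, 11 and 8 members were called toward pools 3 and 4. Without ESC replicate 3, 11 were called toward pools 1 and 2. These counts stand without the share of all genes called in the same fits. On the deposited scale 5 members were called toward pools 3 and 4, where 7.05% of all genes were.

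Within EB 48 members were called toward pools 1 and 2 and 8 toward pools 3 and 4, where 15.8% and 24.7% of all genes were called and 28.8% and 39.6% of high-level genes. The lowest were Mrpl42 at -2.37, Mrps36 at -1.84, Mrps21 at -1.63, Mrps24 at -1.57 and Mrps33 at -1.56, and the highest Mrpl24 at 0.89, Mrps31 at 0.58, Mrpl19 at 0.55, Mrpl3 at 0.52 and Mrpl45 at 0.51. Leaving out any 1 culture gave 42 to 48 members toward pools 1 and 2, a count without the share of all genes called in the same fits. With each array centred on its median the counts were 30 toward pools 1 and 2 and 18 toward pools 3 and 4 (40.4% and 27.4% of all genes), and on the deposited scale 11 and 46 (3.96% and 60.3% of all genes).

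The order of the members was similar in both states. Over the 76 genes the ESC and EB ratios had Pearson's r of 0.804 and Spearman's rho of 0.794, a description across genes that share the same arrays and are not independent; over the high-level genes these were 0.793 and 0.774, close to the members' values, and over all 13240 genes 0.731 and 0.66. In all, 19 members were called toward pools 1 and 2 in both states and 7 toward pools 3 and 4 in both (Mrpl16, Mrpl19, Mrpl24, Mrpl45, Mrps27, Mrps28 and Mrps31). Another 26 had no call in ESC and were called toward pools 1 and 2 in EB, and 11 were called toward pools 3 and 4 in ESC and had no call in EB. Mrpl58, Mrps15 and Mrps26 were called toward pools 3 and 4 in ESC and toward pools 1 and 2 in EB. Mrpl3 had no call in ESC and was called toward pools 3 and 4 in EB, and 9 members had no call in either state.

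**Figure D3:**
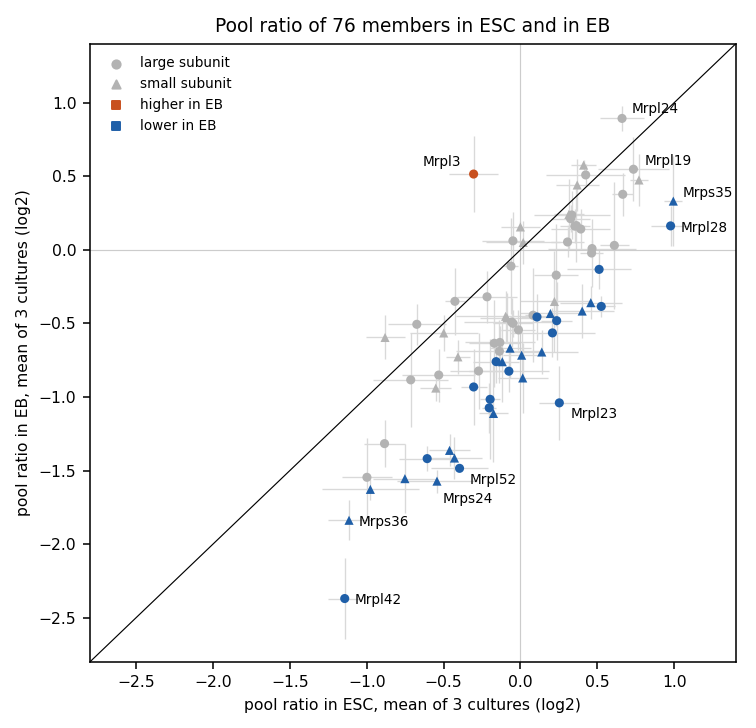
Pool ratio (log2) of the 76 members in ESC on the horizontal axis and in EB on the vertical axis, as means of 3 cultures with SD, with the line of equal values. Most members lie below the line, Mrpl42 lies lowest at -1.14 and -2.37, and Mrpl3 is the coloured point above the line; on the deposited scale the EB median is 0.51 instead of -0.49.

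Pool by pool, most of the members' calls were in pools 1 and 4. In pool 4, 44 members fell and 2 rose in EB relative to all genes (background 15.4% lower and 13.7% higher, and 28.1% and 21.8% among high-level genes), with a median of -0.45. In pool 1, 21 rose and 3 fell (background 5.54% and 7.12%, and 14.1% and 16.3% among high-level genes), with a median of 0.28. In pool 2, 3 rose and 2 fell (background 2.89% and 4.1%), and in pool 3, 3 rose and 10 fell (background 9.66% and 11.5%), with medians of 0.07 and -0.10. The error was widest in pool 2, where the median standard error of the members was 0.21 against 0.10 to 0.13 in the other pools, so the few calls there do not show that the members were alike in both states. Without EB replicate 3, whose pool 2 array stood apart, 4 members rose and 4 fell in pool 2, and the pool ratio was called lower for 23. Of the 31 members whose ratio fell, 25 fell in pool 4 and 17 rose in pool 1. On the deposited scale 64 members were called higher and 1 lower in pool 4, where 75.4% and 0.37% of all genes were. The pool 4 count was 34 to 46 when any 1 culture was left out and 26 without the third replicate of both states. The pool 1 count of members that rose was 9 to 15 when any 1 culture was left out, and 0 without the third replicates (28 had an unadjusted p below 0.05). With the replicate number as a block 14 rose and 0 fell in pool 1. For the fits with left-out cultures or the block, the share of all genes called is not given here. Their counts show only how the numbers moved.

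**Figure D4:**
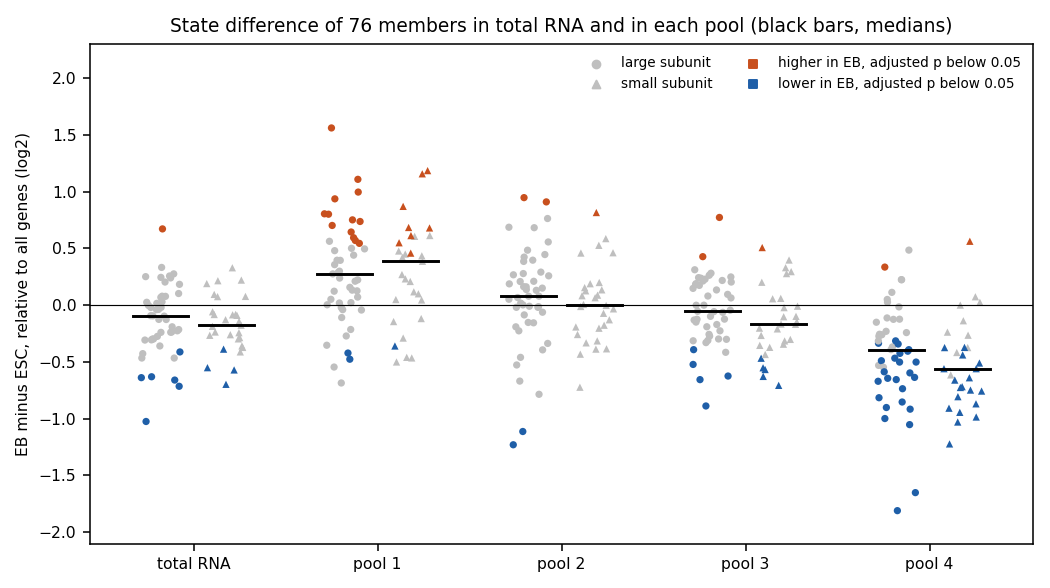
EB minus ESC (log2, relative to all genes) of each of the 76 members in total RNA and in pools 1 to 4, circles for the large and triangles for the small subunit, orange and blue where limma's adjusted p was below 0.05, with a black bar at each median. The medians over both subunits go from 0.28 in pool 1 to -0.45 in pool 4, and 44 members are blue in pool 4, where on the deposited scale 64 are called higher.

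The members did not all take the same path to a lower ratio. Mrpl23 rose by 1.56 ± 0.08 in pool 1 (limma adjusted p = 0.00229), from 8.07, 7.95 and 7.96 to 9.60, 9.43 and 9.63, and by 0.91 ± 0.21 in pool 2 (adjusted p = 0.0330), and its pool 4 difference of -0.32 ± 0.10 was not called (adjusted p = 0.0599). Mrpl52 went the other way: its pool 1 difference was -0.02 ± 0.13 (adjusted p = 0.942), and in pool 4 it fell by 1.81 ± 0.08 (adjusted p = 0.000181), from 10.70, 10.67 and 10.60 to 8.76, 8.82 and 8.95. Mrps24 and Mrpl42 differed at both ends. Mrps24 rose by 1.18 ± 0.14 in pool 1 and fell by 0.64 ± 0.12 in pool 4, and Mrpl42 rose by 0.70 ± 0.08 and fell by 1.05 ± 0.21 (limma adjusted p between 0.00576 and 0.0125 for these 4 values). Mrpl11 fell by 1.65 ± 0.12 in pool 4, by 0.66 ± 0.14 in pool 3 and by 1.23 ± 0.23 in pool 2, beside its decrease in total RNA.

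Members that moved against the rest did so in particular pools. Mrpl3 fell by 1.11 ± 0.27 in pool 2 (limma adjusted p = 0.0405), with differences of -0.69 in pool 1, 0.00 in pool 3 and -0.15 in pool 4 that were not called, so its higher ratio came from lower values in pools 1 and 2. Mrpl17 rose by 1.11 in pool 1, by 0.95 in pool 2 and by 0.77 in pool 3, beside its rise in total RNA. The 2 members that rose in pool 4 were Mrps31 by 0.56 and Mrpl24, a homologue of a bacterial protein next to the exit tunnel, by 0.33. Of the paralogues, Mrps18a rose by 0.87 ± 0.20 in pool 1 (adjusted p = 0.0402, and 0.0595 with the replicate number as a block), and in pool 4 Mrps18a fell by 0.44, Mrps18b by 0.56 and Mrps18c by 0.99, so that all 3 were called lower there. Mrps12 fell by 0.66 and Mrpl12 by 0.47 in pool 4, and Mrpl12 rose by 0.74 in pool 1.

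**Figure D5:**
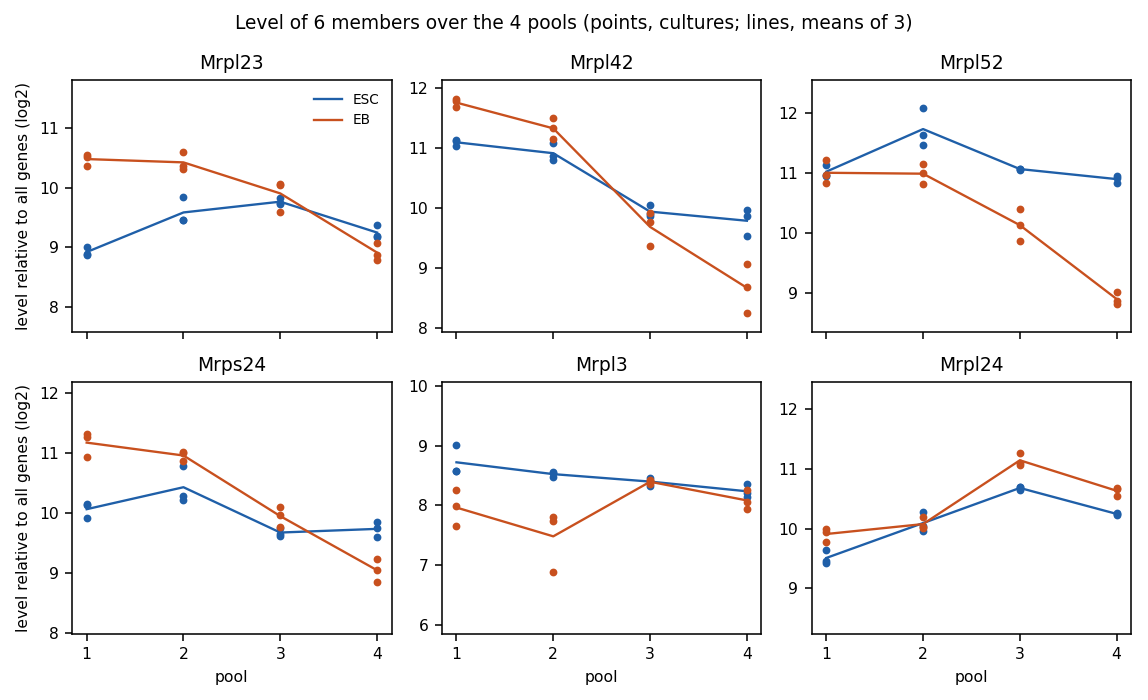
Level (log2, relative to all genes over the 24 pool arrays) of 6 members in pools 1 to 4, points for single cultures and lines for means of 3, blue for ESC and orange for EB. In EB the lines of Mrpl23, Mrpl42, Mrpl52 and Mrps24 descend from pool 1 to pool 4, that of Mrpl3 is lowest in pool 2, and that of Mrpl24 is highest in pool 3 in both states.

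With all 24 pool arrays on 1 distribution, the pool with the highest mean level was pool 1, 2, 3 or 4 for 9, 32, 34 and 1 members in ESC and for 24, 29, 19 and 4 members in EB. In ESC pools 2 and 3 were highest for 42.1% and 44.7% of members and for 20.4% and 22.5% of high-level genes, pool 1 for 11.8% and 32.2%, and pool 4 for 1.32% and 24.9%. In EB pool 4 was highest for 5.26% of members and 38.3% of high-level genes, and pool 1 for 31.6% and 21%. Pool 4 was thus rarely the highest for members in either state, while the share for pool 1 was below that of high-level genes in ESC and above it in EB. All 4 members highest in pool 4 in EB were of the small subunit, and of the 19 highest in pool 3, 16 were of the large subunit. The large subunit holds 47 of the 76 members. Some leads of pool 4 were small: the EB means of Mrps22 were 8.85 in pool 3 and 8.92 in pool 4. By culture 2, 3 and 5 members were highest in pool 4 in EB, and a split by subunit was not tested.

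Proteins of the mitoribosome named outside the Mrp series behaved in part like the members. Of 4 measured, Gadd45gip1 (the large-subunit protein mL64, also known as CRIF1) fell in the pool ratio by 1.28 ± 0.17 (limma adjusted p = 0.00515) and Chchd1, a small-subunit protein, by 1.05 ± 0.20 (adjusted p = 0.0124), and in total RNA Chchd1 fell by 0.49 ± 0.10 (adjusted p = 0.0272). Dap3 and Ptcd3 were not called in the ratio. Dap3 went against the members, from 0.415, 0.236 and 0.149 in ESC to 0.627, 0.637 and 0.629 in EB. Ptcd3 went from -0.657, -0.727 and -0.775 to -1.242, -1.196 and -1.068. Of 13 mitochondrial translation factors 1 rose and 1 fell in the ratio. Mtif2, the mitochondrial initiation factor that brings the initiator tRNA to the ribosome, rose by 0.98 ± 0.18 (adjusted p = 0.0125), and Oxa1l, which inserts nascent chains into the inner membrane, fell by 0.70 ± 0.17 (adjusted p = 0.0298). The median of the factors was 0.12. For these short lists the background in the ratio is 4.72% of all genes called lower and 3.66% higher, and 12.7% and 8.53% of high-level genes, so 1 of 13 in a direction is near it. In total RNA 1 factor was called, the release factor Mtrf1l, which rose by 0.63 ± 0.16 (adjusted p = 0.0462).

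Of 19 mitoribosome assembly factors 2 fell in the ratio, Malsu1, which keeps the subunits from joining early, by 1.28 ± 0.17 (limma adjusted p = 0.00515) and Rpusd4, a pseudouridine synthase of the mitochondrial rRNA, by 0.66 ± 0.18 (adjusted p = 0.0418). The list's median was -0.23, and 2 of 19 lies within the background shares of all and of high-level genes. In total RNA Rpusd4 fell by 0.45 ± 0.11 (adjusted p = 0.0417). Of 11 transcription regulators tested, Yy1 rose in the ratio by 0.96 ± 0.18 (adjusted p = 0.0129), and in total RNA Gabpa, the DNA-binding part of the factor once called NRF-2, rose by 0.52 ± 0.11 (adjusted p = 0.0262) and Myc fell by 1.202 ± 0.186 (adjusted p = 0.0108). With the replicate number as a block the total RNA calls on Chchd1, Mtrf1l, Rpusd4 and Gabpa were lost (limma adjusted p of 0.0706 to 0.0881).

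A shift of the same direction was present in nuclear genes of the respiratory chain and was smaller in cytosolic ribosomal proteins. Of 77 respiratory chain genes 45 fell in the pool ratio, with a median of -0.70, and in total RNA 15 fell and 2 rose, with a median of -0.26. Of 45 cytosolic ribosomal protein genes 1 fell in the ratio (Rpl37), with a median of -0.18 and, without overlap, 25 below and 1 above in EB. Of all genes 4.72% were called lower in the ratio, and 5.88% lower and 6.47% higher in total RNA. Among high-level genes these shares were 12.7%, 10.4% and 10.2%. Without overlap, 13.8% of all genes lay below and 16.6% above in the ratio. These lists stand beside the 31 of 76 members and their median of -0.51, and the differences between the lists were not tested. The lower ratio is therefore not particular to the mitochondrial ribosomal proteins in these data.

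The promoters of the members could be read for 67 of the 76 genes from RefSeq (GRCm38.p6), as 300 bases from 250 before to 50 after the annotated start. The window of 25 members (37.3%) held CCGGAAG on either strand, the core bound by ETS-family factors such as GABPA, against 12.9% of 17492 protein-coding genes and 41.0% of cytosolic ribosomal protein genes. GCATGCGC, part of the NRF1 motif, was in 8 members (11.9%) against 3.94%, and AAGATGGCG, a form of the YY1 motif, in 8 (11.9%) against 2.14%. The ETS core ends in the letters AAG with which the YY1 form begins, so both can match on shared letters. Among members whose pool ratio fell 13 of 28 windows held the ETS core, and among the others 12 of 39. The NRF1 motif went the other way, with 1 of 28 against 7 of 39, and the YY1 form was in 4 of each. At none of the 67 annotated starts did a C begin a run of C or T with 4 more such letters, a property of TOP mRNAs whose translation follows mTOR signalling, against 23.0% of 61 cytosolic ribosomal protein genes and 2.67% of all. A match is a description of the letters, not a bound site, and annotated starts can differ from those used in these cells.

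The promoters of 6 members are shown, from 100 bases before to 20 after the start, for the 3 members whose ratio fell most, for the paralogue Mrps18a, and for Mrpl3 and Mrpl17, the single members called higher in the ratio and in total RNA. Capitals mark the motif matches on either strand, so CTTCCGG is the ETS core and GCGCATGC the NRF1 motif read on the other strand. Mrpl23 lies at chr7:142532932-142533051 on the plus strand, Mrpl42 at chr10:95501930-95502049 on the minus strand, Mrpl52 at chr14:54426809-54426928 on the plus strand, Mrps18a at chr17:46110904-46111023 on the plus strand, Mrpl3 at chr9:105053168-105053287 on the plus strand and Mrpl17 at chr7:105811068-105811187 on the minus strand.
Mrpl23: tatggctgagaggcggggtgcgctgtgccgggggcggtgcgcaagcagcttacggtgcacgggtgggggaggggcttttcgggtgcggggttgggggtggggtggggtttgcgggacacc
Mrpl42: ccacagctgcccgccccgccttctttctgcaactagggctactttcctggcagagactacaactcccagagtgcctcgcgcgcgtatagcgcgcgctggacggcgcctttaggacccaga
Mrpl52: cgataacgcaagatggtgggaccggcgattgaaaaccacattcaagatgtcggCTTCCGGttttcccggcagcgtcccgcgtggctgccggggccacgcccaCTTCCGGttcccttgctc
Mrps18a: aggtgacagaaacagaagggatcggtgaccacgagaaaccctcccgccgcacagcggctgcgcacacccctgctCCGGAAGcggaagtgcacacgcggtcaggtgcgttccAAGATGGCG
Mrpl3: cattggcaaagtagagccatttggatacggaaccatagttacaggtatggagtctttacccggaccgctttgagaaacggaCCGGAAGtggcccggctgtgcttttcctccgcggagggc
Mrpl17: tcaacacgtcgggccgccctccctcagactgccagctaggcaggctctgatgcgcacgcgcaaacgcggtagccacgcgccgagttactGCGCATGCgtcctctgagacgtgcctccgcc
The windows of Mrpl23 and Mrpl42 hold no match in this stretch, that of Mrpl52 holds the ETS core at -47 and at 3 from the start, and that of Mrps18a holds it at -26 with the YY1 motif at 12. Mrpl3, whose ratio went up, has the ETS core at -19, so the core was present on both sides of the comparison.

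Other probe sets of the members gave a weaker picture. Of 42 members with more than 1 probe set, 38 had another that passed the filter, and of these 68 other probe sets 47 had the sign of the one used. Of 20 other probe sets of members called lower, 14 had a negative difference. Over all 68 other probe sets the median difference was -0.08. Their median mean level was 6.15 on the log2 scale, against 8.96 for the probe sets used, so they are dimmer and closer to the offset. For Mrpl52 they gave -1.01 and -0.97 and for Mrpl11 -0.53, -0.48 and, for the dimmest, 0.18. For Mrps14, called lower in the ratio at -0.64, the second and dimmer probe set gave 0.50. For Mrpl50, which was not called, 2 probe sets of nearly equal level (7.72 and 7.52) gave -0.43 and 0.76. The cause of disagreement between probe sets was not tested.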

How the data were processed

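RNA was hybridized to Affymetrix mouse expression arrays, 1 per sample, 30 in all. The authors deposited log2 signal values, whose making involved MAS5 and affy per the submitters' processing notes (versions are not given in the sources used here); array means differ widely and no common scale is recorded. Of 45101 probe sets, 64 are controls, 34945 carry 1 symbol in the platform annotation, 932 several and 9160 none; only those with 1 symbol were named. Here the values were made linear, 32 was added, log2 was taken, and the arrays of each comparison were quantile normalized. Probe sets among the dimmest 40% by mean were left out, and 1 probe set per gene was kept. The tests used limma (version 3.58.1, lmFit and eBayes, under R version 4.3.3) on 3 cultures per state, with Benjamini-Hochberg adjustment over 13240 genes at 0.05.

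Pool ratios were formed within each culture before the fit. A permutation of 3 against 3 cultures cannot go below a p of 0.1. The labels call the replicates biological and give no further source. In each state they share numbers, and pool arrays of 1 number share a floor value across the states. The deviations of same-numbered samples correlated at 0.01 to 0.04 in total RNA, 0.02 to 0.10 in the pool ratio and -0.003 to 0.30 in single pools. No comparison had every pair above 0.1, so the numbers were not taken as pairs, and the fit with the number as a block is an alternative. The procedure was tested on simulated data. The members and all gene lists were chosen with earlier results of these data known. Named members are the 5 highest and 5 lowest per comparison in total RNA and the pool ratios, with values for those called, and Mrps18a, Mrps18b, Mrps18c, Mrpl12, Mrps12, Mrps30 and Mrps36. From other lists the called genes with the highest and the lowest difference are named. Mrpl58, Mrpl28 and the members named for pools were added after their values were seen. Alternatives covered the scaling, the offset, the filter, the probe sets, the replicate block, left-out cultures and the assignment of subunits. The number of arrays limits the precision.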

Additional observations from a re-analysis of the deposited data

Results flagged for a closer look

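The pool ratio differed between the states, by the limma test of the difference, for 31 members that fell and 1 that rose; the 11 of them that the naming rule covers are given here. The difference, EB minus ESC on the log2 scale relative to all genes, was -1.29 for Mrpl23, -1.23 for Mrpl42, -1.09 for Mrpl52 and -1.03 for Mrps24. It was -0.99 for Mrps18c, -0.94 for Mrps18a, -0.90 for Mrps30 and -0.72 for Mrps36, and -0.64 for Mrpl12 and -0.60 for Mrps12. Among these 11 only Mrpl3 had a positive difference, 0.82. The groups of 3 cultures were too small to be tested for a single outlying culture.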

How the results depend on the processing

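Counts of called members depended on the scaling between arrays, the offset and single cultures. The counts below stand without the share of all genes called in the same fit. They show how a count moved and are not results about the members. On the deposited scale all genes tested had a median difference of 0.98 in pool 3 and 0.84 in pool 4. When any 1 culture was left out, the members called higher numbered 0 to 1 in total RNA, 0 to 1 in the pool ratio between states, 8 to 23 in the ratio within ESC, 9 to 15 in pool 1, 0 to 4 in pool 2 and 1 to 2 in pool 3, and those called lower 3 to 7 in total RNA, 0 to 25 in the pool ratio between states, 11 to 21 in the ratio within ESC, 0 to 2 in pool 1, 0 to 4 in pool 2 and 6 to 9 in pool 3. The large minus small subunit median was 0.003 to 0.14 in total RNA, 0.12 to 0.18 in the pool ratio between states and -0.052 to 0.15 in the ratio within ESC. Without EB replicate 3 the sign turned in total RNA for Mrps18a (-0.041). The counts within EB and in pool 4 kept within 1.5 times of the reported ones. On the deposited scale, the members called were 75 higher and 0 lower in total RNA, 53 higher and 0 lower in the pool ratio between states, 5 higher in the ratio within ESC, 46 higher and 11 lower in the ratio within EB, 0 higher and 0 lower in pool 1, 0 higher and 0 lower in pool 2, 66 higher and 0 lower in pool 3 and 64 higher and 1 lower in pool 4. The subunit medians differed, large minus small, by 0.10 in the pool ratio between states. In total RNA the sign turned for Mrpl11 (0.17), Mrpl36 (0.54), Mrps36 (0.57), Mrpl52 (0.46), Mrpl18 (0.55), Mrps12 (0.99), Mrps18b (1.00), Mrps30 (1.05), Mrps18c (1.07), Chchd1 (0.70) and Rpusd4 (0.80). In the pool ratio between states the sign turned for Mrpl52 (0.24), Mrps24 (0.16), Mrps18c (0.21), Mrps18a (0.21), Mrps30 (0.23), Mrps36 (0.39), Mrpl12 (0.58), Mrps12 (0.58), Mrps18b (0.84), Chchd1 (0.21), Oxa1l (0.35) and Rpusd4 (0.35). Within EB it turned for Mrps12 (0.33), Mrps18b (0.57). In pool 4 it turned for Mrps18c (0.33), Mrps36 (0.26), Mrps30 (0.46), Mrps12 (0.66), Mrps18b (0.77), Mrpl12 (0.83) and Mrps18a (0.84). With each array centred on its median, the members called were 7 higher in total RNA, 5 higher and 8 lower in the pool ratio between states, 10 higher in the ratio within ESC, 18 higher and 30 lower in the ratio within EB, 7 higher and 1 lower in pool 1, 0 higher and 1 lower in pool 2, 9 higher and 3 lower in pool 3 and 8 higher and 24 lower in pool 4. The large minus small subunit median was 0.10 in the pool ratio between states. In the pool ratio between states the sign turned for Mrps18b (0.03). With linear signals scaled before the offset, the members called were 20 lower in the pool ratio between states, 15 higher in the ratio within EB and 7 lower in pool 1. The subunit medians differed, large minus small, by 0.11 in the pool ratio between states. In total RNA the sign turned for Mrpl12 (-0.014). With an offset of 8, the members called were 0 higher and 0 lower in the pool ratio between states, 1 lower in pool 1, 0 higher and 1 lower in pool 2 and 1 higher in pool 3. With no filter, the members called were 1 higher and 1 lower in pool 2. With the mean of all probe sets of a gene, the members called were 0 higher in total RNA, 1 lower in pool 1, 0 lower in pool 2 and 5 higher and 6 lower in pool 3. The large minus small subunit median was 0.083 in the pool ratio between states, 0.19 in the ratio within EB. In total RNA the sign turned for Mrpl17 (-0.035). With the replicate number as a block, the members called were 0 higher and 2 lower in total RNA and 0 lower in pool 1. Without the third replicate of both states, chosen after seeing the data, the members called were 0 higher and 0 lower in total RNA, 0 higher and 17 lower in the pool ratio between states, 0 higher and 0 lower in pool 1, 1 higher and 2 lower in pool 3 and 1 higher and 26 lower in pool 4. The subunit medians differed, large minus small, by 0.020 in total RNA, -0.054 in the ratio within ESC. In total RNA the sign turned for Mrps18a (-0.097). With a fit on the 2648 high-level genes alone, also chosen after seeing the data, the members called were 6 higher and 23 lower in total RNA, 0 higher in the pool ratio between states, 7 lower in pool 1, 8 higher and 7 lower in pool 2, 6 higher and 17 lower in pool 3 and 4 higher in pool 4. The large minus small subunit median was 0.18 in the ratio within ESC, 0.23 in the ratio within EB. With subunits assigned by structure, the large minus small subunit median was 0.10 in the pool ratio between states, -0.053 in the ratio within ESC and 0.032 in the ratio within EB. The causes of these changes were not tested, except that fits on fewer cultures or on fewer genes differ by construction. The replicate numbers were not taken as pairs, since the correlations did not exceed 0.1 for every pair of any comparison, although pool arrays of 1 number share a floor value; the block moved the lower count of the pool ratio from 31 to 27 and that in pool 4 from 44 to 45. Depth is not defined for arrays. Signal over background limits the dim probe sets, and on a pool array 18.3% to 59.1% of all probe sets lay at the floor.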
